A study of Mus musculus with 4 samples.

Results

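The heavy chain constant region genes of mouse antibody, Ighm, Ighd, Ighg3, Ighg1, Ighg2b, Ighg2c, Ighe and Igha, were followed in single liver cells. All 8 were chosen by symbol out of 33696 genes in the count tables, and none was chosen for its level. They were read in cells with at least 1 unique molecular identifier (UMI) of Cd79a, the signalling partner of the antigen receptor of B cells, which were 18001 of 25359 kept cells. Within these cells, those with a UMI of Fcer2a (CD23, carried by follicular B cells) and none of Zbtb32 were set against those with a UMI of Zbtb32, a transcription factor gene that marks B-1 and memory-type B cells, and none of Fcer2a. These groups held 5866 and 4315 cells, a further 7296 cells had neither gene and 524 had both.

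The study asked how dietary cholesterol, and its withdrawal, alters liver immune cells in steatohepatitis, using fine-needle aspiration (FNA) of the liver. Male wild-type C57BL/6J mice, 7 weeks old at the start, ate the FPC diet of fructose, palmitate, cholesterol and trans-fat. P-LC24 mice received 0.05% cholesterol for 24 weeks and P-HC24 mice 1.25% for 24 weeks. I-LC32 is the low cholesterol group sampled at 32 weeks on 0.05%, and I-HC32 is the high cholesterol group after 24 weeks on 1.25% and 8 weeks on 0.05%. Aspirates of 4 lobes of 3 mice were pooled into 1 library of non-parenchymal cells for each condition, and the same mice were sampled at both times. With 1 library per condition, the Progression difference (Prog, P-HC24 over P-LC24) and the Intervention difference (Int, I-HC32 over I-LC32) have no replicate check, and diet, mice and handling cannot be told apart in them. Values for these are given with exact intervals at 95% that cover counting error only.

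Each antibody molecule pairs light chains with a heavy chain whose constant region sets its class. Before activation, a mature B cell transcribes Ighm and Ighd together from 1 rearranged gene and splices the long transcript to either, so that IgM and IgD stand on the same cell. After activation, a recombination can delete Ighm and Ighd and bring a downstream gene to the front, which switches the cell to IgG, IgE or IgA for good. B-1 cells and marginal zone cells carry much surface IgM and little IgD, follicular cells carry both, and plasma cells make a shorter, secreted form of the heavy chain in very large amounts.

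The genes lie in 1 row on the minus strand of chromosome 12 in the GRCm39 build, in the order Ighm, Ighd, Ighg3, Ighg1, Ighg2b, Ighg2c, Ighe and Igha, all annotated as constant region genes of immunoglobulin. Ighm (ENSMUSG00000076617) spans chr12:113382178-113386350, Ighd (ENSMUSG00000104213) chr12:113370224-113379944 and Igha (ENSMUSG00000095079), at the far end, chr12:113218450-113223856. The IgG genes led in most of the class-switched cells, and reads of such related genes can be hard to assign, so the last 60 coding bases of their shorter, secreted-type transcripts are shown, 5′ to 3′ on the gene's strand. Capitals mark the 29 positions at which the 4 genes are not all alike.
Ighg3, chr12:113323288-113323347: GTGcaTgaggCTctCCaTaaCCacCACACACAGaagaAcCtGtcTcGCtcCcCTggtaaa
Ighg1, chr12:113292599-113292658: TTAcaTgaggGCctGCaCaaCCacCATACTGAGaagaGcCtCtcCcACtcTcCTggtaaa
Ighg2b, chr12:113270012-113270071: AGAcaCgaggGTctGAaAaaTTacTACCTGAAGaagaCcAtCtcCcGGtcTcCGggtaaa
Ighg2c, chr12:113251012-113251071: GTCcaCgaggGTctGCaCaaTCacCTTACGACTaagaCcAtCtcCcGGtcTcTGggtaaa
Any pair of these shared between 38 and 46 of the 60 bases, so a read over this stretch can be told apart, while reads over more alike parts of the genes may be split between them by the counting. How the counting treated such reads was not tested.

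The last 60 coding bases of the secreted Ighm and Igha transcripts are shown because these are the classes whose antibody is joined into larger units by the J chain, the product of Jchain, through a cysteine in this tail. Capitals mark the 41 positions that both share.
Ighm, chr12:113384490-113384549: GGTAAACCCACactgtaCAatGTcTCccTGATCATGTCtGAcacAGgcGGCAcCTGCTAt
Igha, chr12:113222391-113222450: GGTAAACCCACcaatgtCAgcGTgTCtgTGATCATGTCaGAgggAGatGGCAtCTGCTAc
The kit counts transcripts from their 3′ end, so the membrane form and the secreted form of a gene fall into 1 count and were not separated here. In the annotation, the longer membrane transcripts end 268 bases after the stop codon for Ighm, 931 for Ighd, between 1215 and 1349 for Ighg3, Ighg1 and Ighg2b, and 1371 for Igha. Those of Ighg2c and Ighe are listed with 0 bases after it. The counts were made on the reference of Cell Ranger, whose annotation may differ from this one, and the effect on the counts of these last genes was not tested.

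The labels of the cells were checked on marker genes. The summed level of 7 B cell markers, Cd79a included, was between 6124 and 7062 CPM (the UMIs of the genes per 1000000 UMIs of all genes in those cells) in the Cd79a-positive cells of each library and between 20.4 and 48.7 CPM in cells with a Cd3e UMI and no Cd79a UMI, which serve here as the T cell background. Fcer2a-only cells held between 1894 and 2635 CPM of the 6 follicular markers and between 23.8 and 109 CPM of the 7 B-1 markers. Zbtb32-only cells held between 344 and 463 CPM of the first list and between 608 and 734 CPM of the second. Cd3e-positive cells held between 457 and 649 CPM of the first list and between 327 and 599 CPM of the second. Neither of these lists is therefore particular to B cells, and they only set the groups of Cd79a-positive cells against each other. Each list contains its gate gene, the Cd3e-positive cells were chosen to lack Cd79a, and the follicular list contains Ighd, so the gates fix part of these differences. Between 17 and 41 barcodes were shared by any pair of libraries. The 4 libraries kept between 38509673 and 77017579 UMIs. Markers of other cells moved with the libraries. The 6 macrophage and monocyte genes summed to 584 CPM in P-LC24 and 3100 CPM in P-HC24 over the Cd79a-positive cells, then 758 CPM in the I-LC32 library and 2839 CPM in I-HC32, and values follow this order of libraries from here on. The 2 erythroid genes summed to 13518, 7857, 12175 and 2857 CPM and the 3 neutrophil genes to 366, 285, 33.6 and 29.7 CPM. None of these markers was at 0 in any library, and their part in the differences between libraries was not tested.

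Ighm, the heavy chain of IgM, was found in nearly every B cell. Its level in Cd79a-positive cells was 2561, 2356, 2738 and 2835 CPM, from 62420, 102760, 122206 and 161831 UMIs, and between 96.5 and 97.9% of the cells held at least 1 UMI of it. These shares stand over a background: 47.2, 47.2, 38.0 and 43.2% of the Cd3e-positive cells also held an Ighm UMI. The Ighm level of Cd3e-positive cells was between 80.6 and 100 CPM, far under that of the B cells. Whether it came from free RNA or from other sources was not tested. The median Cd3e-positive cell had 8417, 7759, 7082 and 6436 UMIs and the median Cd79a-positive cell 5885, 6822, 6839 and 8714 UMIs, so which of them was deeper differed between libraries. An Ighm UMI in a cell was therefore not read as expression by itself, and levels were used instead.

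Ighd, the heavy chain of IgD, was found in fewer of the same cells and varied more between the libraries. Its level in Cd79a-positive cells was 462, 233, 251 and 179 CPM, and 82.7, 70.6, 70.3 and 67.3% of the cells held a UMI of it, against between 1.54 and 3.10% of the Cd3e-positive cells. When every cell was thinned to 3000 UMIs, leaving out those with fewer and choosing the cell groups anew, the shares were 69.8, 52.4, 52.4 and 43.3%. P-LC24 held the most, I-HC32 the least, and the libraries between them lay close to each other by level and by share. Per 100 Ighm UMIs, the same cells held 18.0, 9.90, 9.16 and 6.33 Ighd UMIs.

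**Figure D1:**
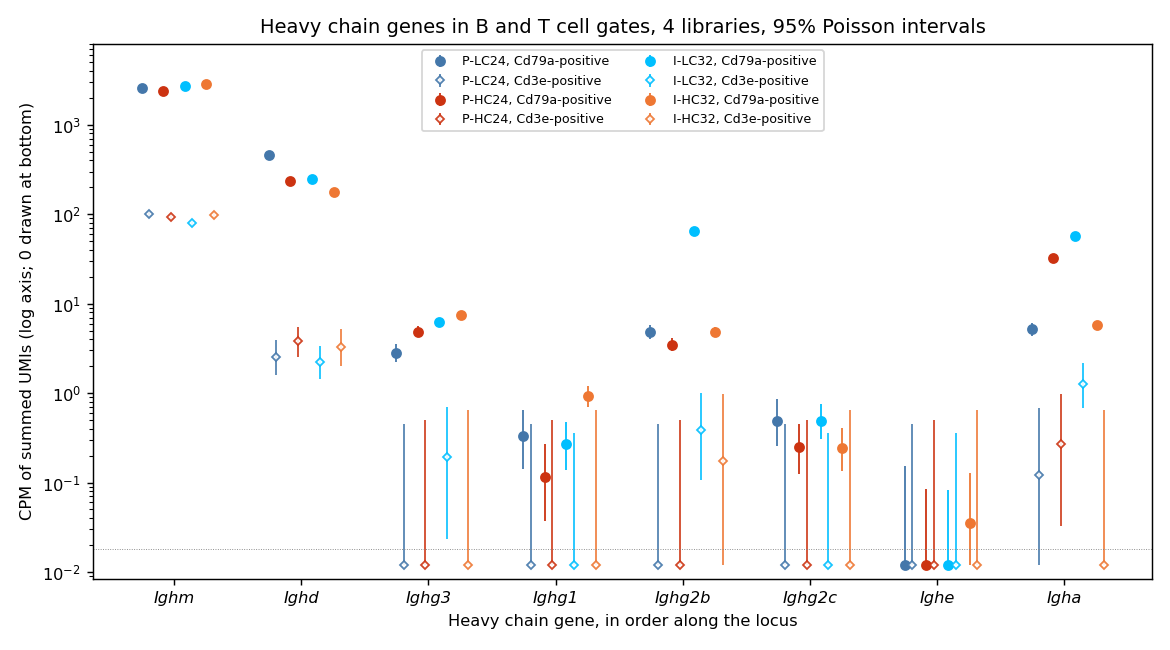
Level of each heavy chain gene, in CPM on a log axis with 0 drawn at the bottom, in the Cd79a-positive (filled) and Cd3e-positive (open) cells of each library, with exact 95% intervals for counting error only. Ighm sits between 2356 and 2835 CPM and Ighd between 179 and 462 CPM in the filled points, and the high Ighg2b and Igha points of I-LC32 and the high Igha point of P-HC24 are each made mostly of 1 barcode.

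The switched genes were rare. Ighg3 reached 2.83, 4.88, 6.16 and 7.46 CPM, from 69, 213, 275 and 426 UMIs, and it was found in 1.10, 2.43, 3.30 and 4.34% of the cells, so level and share had the same order. Thinned to 3000 UMIs per cell, that share was 0.295, 0.838, 1.01 and 1.56%. Igha, the heavy chain of the IgA of mucosal secretions, reached 5.17, 32.0, 56.5 and 5.82 CPM, in 2.72, 4.11, 5.70 and 4.36% of the cells. Ighg2b reached 4.88, 3.48, 65.2 and 4.85 CPM, in 0.735, 0.830, 0.997 and 1.19% of the cells. The share of cells with Igha was lowest in P-LC24 and highest in I-LC32, as its level was. P-HC24 and I-HC32 had the opposite order by share and by level. The share of cells with Ighg2b did not follow its level. Single barcodes carried most of the Igha UMIs of P-HC24 and I-LC32 and of the Ighg2b UMIs of I-LC32. Without the barcode richest in each gene, Igha was at 4.60, 7.16, 7.60 and 5.19 CPM and Ighg2b at 3.90, 2.96, 3.56 and 4.49 CPM. The libraries lay nearer to each other then, but differences remained. Igha was at a log2 ratio of 0.64 (0.32 to 0.96) in Prog and -0.55 (-0.78 to -0.32) in Int. Ighg2b was at -0.40 and 0.33.

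Ighg1, Ighg2c and Ighe stayed near the limit of detection. Ighg1, the IgG class of many responses to protein, had 8, 5, 12 and 53 UMIs in 1, 5, 3 and 7 cells. Ighg2c, the form of IgG2 that C57BL/6 mice carry, had 12, 11, 22 and 14 UMIs in 7, 9, 11 and 9 cells. Ighe, the heavy chain of IgE, had 0 UMIs in the first 3 libraries and 2 UMIs in 2 cells of I-HC32. A count of 0 in 3267, 4701 and 4913 cells allows up to 0.0918, 0.0638 and 0.0611% of cells with a UMI, and up to 0.123, 0.0688 and 0.0672 CPM. None of these genes had enough UMIs to be compared between libraries.

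Fcer2a-only and Zbtb32-only cells carried UMIs of both Ighm and Ighd, and differed in the level of each gene. Ighm stood at 2168, 1746, 1816 and 1955 CPM in Fcer2a-only cells and at 3575, 3124, 3524 and 3478 CPM in Zbtb32-only cells. The ranges did not overlap. How many of all genes had ranges without overlap was not counted, for this gene or those below. A lack of overlap is therefore not shown to be particular to the heavy chain genes. Summed over cells within each library and tested with edgeR's quasi-likelihood test with the library as a block, Ighm was higher in Zbtb32-only cells by 1.03 on the log2 scale (SE 0.05, adjusted p = 3.50e-06 by the Benjamini-Hochberg procedure, n = 4 libraries), a fold of 2.05. The 4 libraries are of 4 conditions and of the same mice at 2 times, so this spread is not that of independent replicates.

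Ighd went the other way. It stood at 727, 541, 525 and 430 CPM in Fcer2a-only cells and at 83.4, 66.9, 65.0 and 92.0 CPM in Zbtb32-only cells, so the lowest Fcer2a-only sum was above the highest Zbtb32-only sum. The test gave a log2 difference of -2.64 (SE 0.14, adjusted p = 4.65e-06, edgeR), and Ighd was 6.24-fold lower in Zbtb32-only cells. By share, 93.4, 91.1, 89.6 and 88.3% of Fcer2a-only cells and 54.7, 49.5, 42.7 and 57.2% of Zbtb32-only cells held an Ighd UMI. This was so although the Zbtb32-only cells were deeper, with a median of between 12690 and 13457 UMIs against between 5090 and 5706 UMIs. Thinned to 3000 UMIs, the shares were 84.2, 79.0, 78.1 and 72.1% against 25.3, 20.5, 17.8 and 25.6%.

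The balance of both transcripts separated the groups in every library. Fcer2a-only cells held 33.5, 31.0, 28.9 and 22.0 Ighd UMIs per 100 Ighm UMIs, and Zbtb32-only cells held 2.33, 2.14, 1.85 and 2.65. Cells with neither gate gene lay between, at 15.5, 12.7, 10.6 and 8.87. Cell by cell, 5316 of 5866 Fcer2a-only cells held UMIs of both genes, and in 390 of them Ighd UMIs outnumbered those of Ighm. Of 4315 Zbtb32-only cells, 2206 held both, 2093 held Ighm alone, and in 6 Ighd outnumbered Ighm. A Zbtb32-only cell without an Ighd UMI is below detection at this depth, and its Ighd is not shown to be absent.

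**Figure D2:**
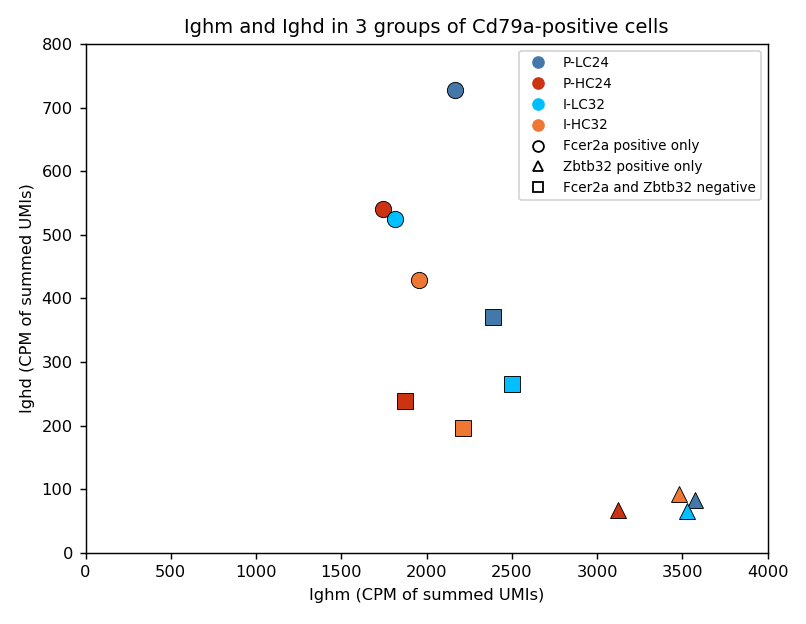
Ighm level against Ighd level, in CPM on linear axes, summed over Fcer2a-only cells (circles), Zbtb32-only cells (triangles) and cells with neither gene (squares), with 1 point per library (colour) and group. The circles lie at 1746 to 2168 CPM of Ighm and 430 to 727 CPM of Ighd, the triangles at 3124 to 3575 and 65.0 to 92.0 CPM, and the square of each library lies between its circle and triangle on both axes.

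The make-up of the B cells also differed between libraries. Fcer2a-only cells were 53.7, 29.8, 34.0 and 20.4% of the Cd79a-positive cells, and Zbtb32-only cells 11.0, 23.3, 23.8 and 33.1%. These shares move with the Ighd level of all Cd79a-positive cells given above, which was highest in P-LC24 and lowest in I-HC32. Within a group, the differences between libraries were smaller. Ighd spanned 430 to 727 CPM over the libraries in Fcer2a-only cells, with P-LC24 the highest and I-HC32 the lowest again. In Zbtb32-only cells it spanned 65.0 to 92.0 CPM, and I-HC32 was the highest there.

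Of the 3 switched genes with enough UMIs to test, Ighg3 had the highest estimate, although Igha differed more in P-HC24. It stood at 0.378, 1.85, 0.653 and 0.974 CPM in Fcer2a-only cells and at 6.39, 7.30, 12.2 and 9.08 CPM in Zbtb32-only cells. The groups did not overlap, and how common this was over all genes was not counted. The log2 difference was 3.40 (SE 0.33, adjusted p = 8.68e-05, edgeR). The Fcer2a-only sums held 4, 16, 7 and 7 UMIs and the Zbtb32-only sums 34, 115, 201 and 233, so the gene passed the filter on low sums through the group in which it was high, and the size of the difference is uncertain. With every gene of at least 1 UMI kept, the difference was 3.43 and past the threshold. An Ighg3 UMI was held by 5.59, 5.58, 8.80 and 7.91% of Zbtb32-only cells, by 0.228, 0.571, 0.359 and 0.480% of Fcer2a-only cells and by at most 0.154% of Cd3e-positive cells. Among the cells that were Zbtb32-only after thinning, the share was 1 of 150 cells in P-LC24, or 0.667%, and then 1.75, 3.04 and 2.26%. Without P-HC24 the gene had too few UMIs to be tested.

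Igha was higher in Zbtb32-only cells too, by 2.52 on the log2 scale (SE 0.49, adjusted p = 0.00331, edgeR), from 3.59, 4.40, 4.75 and 2.23 CPM to 9.02, 79.5, 10.0 and 7.87 CPM. A single P-HC24 barcode held 1086 of the 1252 Igha UMIs of that library's Zbtb32-only cells. The difference was 1.55 without P-HC24 and 1.52 without the 5 barcodes with very high antibody counts, and it was past the threshold in both. Ighg2b stood at 1.98, 3.36, 2.89 and 2.09 CPM against 3.57, 4.70, 2.68 and 5.50 CPM, and its values overlapped. It was called higher in Zbtb32-only cells by 0.82 (SE 0.26, adjusted p = 0.0299, edgeR), but lost the call in 7 of 14 alternatives. Its adjusted p was 0.0671 without P-LC24, 0.0812 without P-HC24 and 0.115 without I-HC32, each by edgeR, and 0.0580 by DESeq2.

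**Figure D3:**
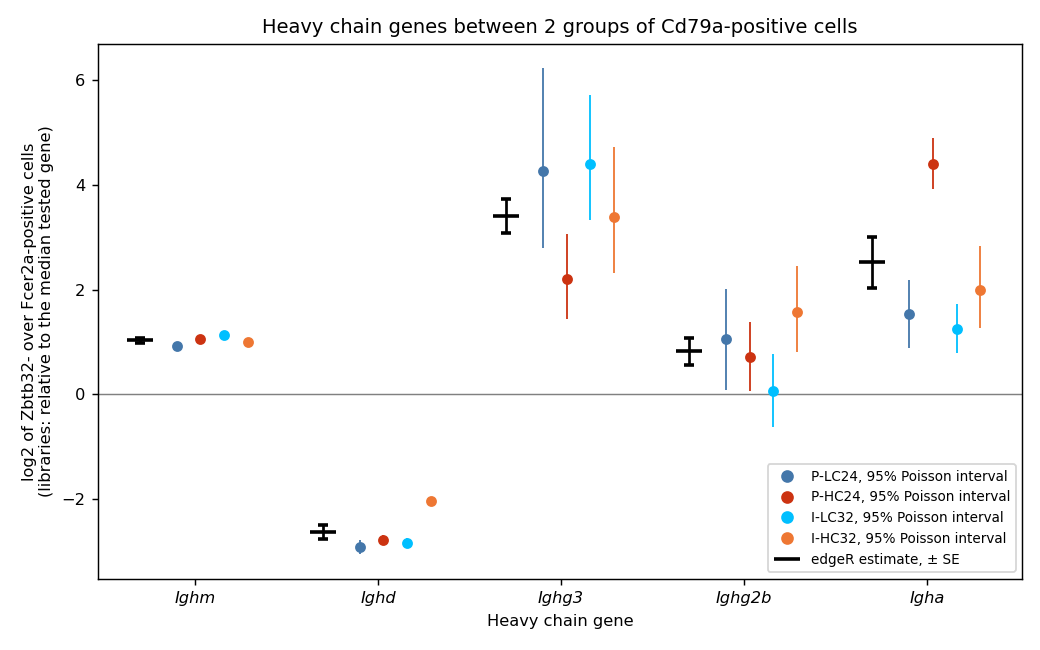
Log2 difference of 5 heavy chain genes, Zbtb32-only over Fcer2a-only cells, as the edgeR estimate with its SE (black) and as the ratio within each library (coloured, exact 95% intervals for counting error), the latter set relative to the median tested gene of that library. The estimates are 1.03 for Ighm, -2.64 for Ighd, 3.40 for Ighg3, 0.82 for Ighg2b and 2.52 for Igha, with Igha far higher in P-HC24 than in the other libraries and Ighg2b close to 0 in I-LC32.

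Of the 8 genes, 5 passed the filter on low sums, and Ighg1, Ighg2c and Ighe did not. Calls were common over all genes. Of 12686 genes tested, 6325 were called, or 49.9%, with 26.6% higher and 23.3% lower in Zbtb32-only cells, and 4101 were called without the library block. The split depended on scaling: 53.4% of the calls were higher with the trimmed-mean factors of edgeR and 31.2% with library totals alone, where the median gene lay at -0.20 on the log2 scale. The calls on Ighm, Ighd, Ighg3 and Igha held with either scaling, and that on Ighg2b did not (adjusted p = 0.0684 with totals alone, edgeR). Macrophage genes summed to between 91.7 and 1425 CPM in Fcer2a-only and between 310 and 919 CPM in Zbtb32-only cells, T cell genes to between 16.9 and 35.1 and between 23.0 and 50.6 CPM, and neutrophil genes to between 4.17 and 323 and between 1.40 and 8.38 CPM. At most 1 marker of any of these lists was at 0 in a sum, and their part in the calls was not tested.

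Genes around the heavy chain locus were then read in the same fit, list by list, beside a median of -0.01 over all genes tested. The 7 genes that shape the Ighm and Ighd transcripts had a median log2 difference of -0.10, with 1 higher, 2 lower and 4 not called. Zfp318, the nuclear factor needed to make the IgD message, was lower in Zbtb32-only cells, at 14.7 to 24.4 CPM against 87.6 to 185 CPM in Fcer2a-only cells (log2 -2.49, SE 0.14, adjusted p = 6.14e-06, edgeR). The cleavage factor gene Pcf11 was lower by a log2 of -0.27 and the splicing factor gene Srsf3 higher by 0.26. Ell2, an elongation factor that favours the secreted heavy chain message, was not called, at 108 to 202 CPM against 130 to 191 CPM.

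Of 20 genes of class switch recombination, 14 were not called and 3 were lower, with a median of -0.17. Among those that were higher, the repair endonuclease gene Apex1 differed by 0.66 and the transcription factor gene Batf by 1.12. The repair genes Parp1, Prkdc and Trp53bp1 were lower, by log2 values of -0.58, -0.21 and -0.31. Xrcc4 and Hmces, among the most abundant of the list, were not called, at -0.20 and -0.20.

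Of 18 genes that take in cytokine and helper signals for switching, 2 were higher, 13 lower and 3 not called, and the median was -0.49. The higher genes were Il5ra, the receptor chain for interleukin 5, at 325 to 515 CPM against 90.7 to 152 CPM, and Tnfrsf13b, which encodes TACI, a receptor for BAFF and APRIL, at 102 to 140 CPM against 60.5 to 89.2 CPM. Tgfbr2, a receptor of the cytokine that directs switching to IgA, was lower by a log2 of -0.73, and Ifngr1, a receptor chain for interferon gamma, by -0.99.

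The genes of antibody secretion were mostly higher. Of 15 genes, 14 were tested, 10 were higher, 1 lower and 3 not called, with a median of 0.70. Mzb1, a chaperone for IgM assembly, stood at 389 to 614 CPM against 188 to 260 CPM (log2 1.33, SE 0.05), and the chaperone gene Hsp90b1 and the signal peptidase gene Sec11c were higher by 0.44 and 0.66. Prdm1, the transcription factor gene of plasma cell fate, stood at 27.2 to 49.8 CPM against 2.66 to 4.73 CPM. Jchain ran from 2.44 to 31.4 CPM against 0 to 2.14 CPM, the highest value being that of the library with the Igha-rich barcode. Xbp1, Irf4 and Hspa5 were not called. Sdc1, a surface marker of plasma cells, was the gene that was lower, at 0 to 0.571 CPM against 2.74 to 4.05 CPM. Derl3, another of the higher genes, was at 0.472 to 1.39 CPM in Fcer2a-only cells. Jchain, Derl3 and Sdc1 passed the filter on low sums through the group in which they were high. The size of these differences is therefore uncertain, and their calls are not separate support.

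All 7 tested receptors for antibody or their relatives, of 8 listed, were called, with 3 higher, 4 lower and a median of -0.38. Fcmr, the receptor for IgM, was lower in Zbtb32-only cells at 231 to 314 CPM against 403 to 505 CPM, and Fcrla and Fcrl1 were lower by log2 values of -0.38 and -2.45. Fcgrt, the receptor that recycles IgG, was lower by -1.42. Fcgr2b, the inhibitory receptor for IgG, was higher by 0.35, Pigr, which carries IgA and IgM across epithelia, by 1.25, and Fcrl5 by 2.92. Of 4 light chain genes, Iglc1 and Iglc2 were higher by 1.33 and 0.57 and Igkc and Iglc3 were not called, with a median of 0.29. The Iglc1 estimate had an SE of 0.43. Its values overlapped and varied widely between libraries, at 427 to 4439 CPM in Zbtb32-only against 241 to 480 CPM in Fcer2a-only cells. Of 9 partners of the receptor, Cd79b, Cd81 and Lyn were higher, Btk lower and 5 not called, among them Syk and Blnk, with a median of 0.10.

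Of 9 genes of germinal centre and memory cells, 7 were tested, 3 were higher, 2 lower and 2 not called, with a median of 0.09. Nt5e, Cd80 and Pdcd1lg2, which mark memory-type B cells, were higher by 2.00, 3.38 and 1.42. Fas and Cd27 were lower by -0.53 and -0.86, and Bcl6, the transcription factor gene of the germinal centre, was not called.

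A UMI of a switched gene did not by itself mark a switched cell. In all, 142, 329, 473 and 480 Cd79a-positive cells held at least 1 UMI of the 6 switched genes, and 72.5, 70.8, 75.3 and 65.2% of them held just 1. Most of these cells held more Ighm. This was so for 518 of 534 cells with an Ighg3 UMI, or 97.0%, and for 758 of 785 cells with an Igha UMI, or 96.6%. It was so for 124 of 173 with Ighg2b, 19 of 36 with Ighg2c, 9 of 16 with Ighg1 and 1 of 2 with Ighe. In the 23 Fcer2a-only and 318 Zbtb32-only cells with an Ighg3 UMI, Ighm led in 22 and 313. A class-switched cell was therefore called as one with at least 2 UMIs of the switched genes together and more of these than of Ighm.

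By that rule 14, 16, 19 and 26 cells were class-switched, 75 of 18001 in all. The shares were 0.429% (exact 95% interval 0.234 to 0.718), 0.340% (0.195 to 0.552), 0.387% (0.233 to 0.603) and 0.508% (0.332 to 0.743) of the Cd79a-positive cells. The intervals overlapped. They cover counting error only, and with 1 library per condition a difference between the libraries was not tested. None of 923, 872, 1298 and 791 Cd3e-positive cells met the rule, which allows up to 0.325, 0.344, 0.231 and 0.379%.

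Ighg2b was the leading isotype of 40 class-switched cells, 10, 6, 10 and 14 by library. Igha led in 11, Ighg3 in 10, Ighg1 in 5, Ighg2c in 5 and Ighe in 0, and 4 cells were tied. IgG genes together led in 62 cells, 13, 11, 15 and 23 by library. Of the 75 cells, 44 held no Ighm UMI and 63 no Ighd UMI, 58 held at least 5 switched UMIs, and the median was 8 switched UMIs in a cell of 6494 UMIs. In 4 of them lambda UMIs outnumbered kappa.

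Class-switched cells were 8 of 5866 Fcer2a-only cells, or 0.136% (exact 95% interval 0.0589 to 0.269), 23 of 4315 Zbtb32-only cells, or 0.533% (0.338 to 0.799), and 43 of 7296 cells with neither gene, or 0.589% (0.427 to 0.793). By library, the Fcer2a-only cells held 3, 3, 1 and 1 of them and the Zbtb32-only cells 1, 6, 7 and 9. The pooled intervals count the cells of 4 conditions as 1 set and cover counting error only, so they do not show a difference between the groups. Within each of the 4 libraries the intervals of the first 2 groups overlap. The Zbtb32-only cells were also deeper, and the rule sets switched UMIs against Ighm, which was higher in them. The part of depth and of Ighm in these shares was not tested. All 8 of the Fcer2a-only cells were led by IgG genes and none by Igha, while Igha led in 6 of the 23 Zbtb32-only cells.

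**Figure D4:**
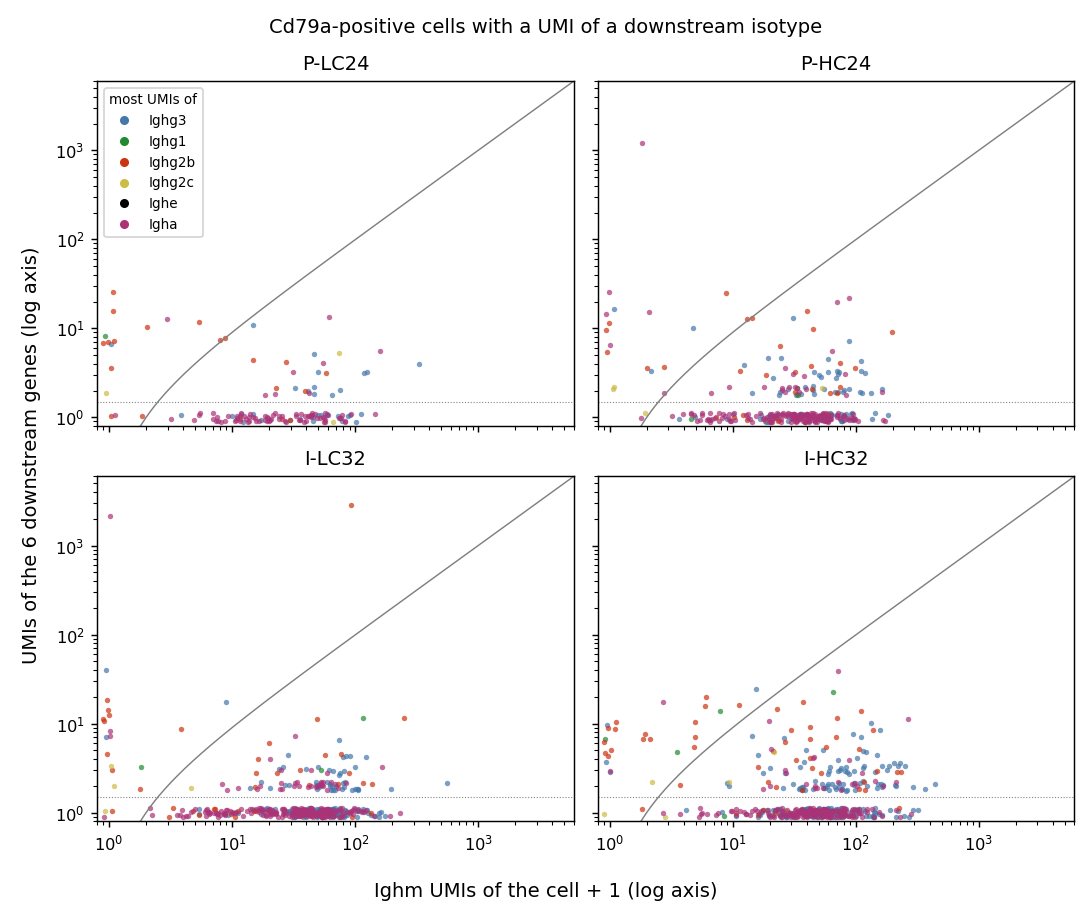
UMIs of the 6 switched heavy chain genes against UMIs of Ighm plus 1 in each Cd79a-positive cell with at least 1 switched UMI, by library, on log axes with points slightly scattered, coloured by the leading gene, with a curve of equal counts and a dotted line at the minimum of 2 UMIs. Most cells lie below the curve with few switched UMIs, 14, 16, 19 and 26 cells meet the class-switched rule above it, and the barcodes with 1086 and 2185 Igha UMIs and 2752 Ighg2b UMIs stand apart.

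The genes that set the 75 class-switched cells apart from the other Cd79a-positive cells, among 4236 genes with enough UMIs, are given by size without a test. The highest ratio was that of Vmn2r96, a pheromone receptor gene, at 66.0 against 8.02 CPM in 10 cells. Atp1b1, at 59.7 CPM, and Yes1, at 61.3 CPM, followed, but 1 cell held 47.4% and 64.1% of their UMIs. Fas, the death receptor found on germinal centre and memory cells, stood at 37.7 against 5.89 CPM and was found in 12 cells. Nt5e, which encodes CD73 of memory B cells, stood at 214 against 39.3 CPM and was found in 29 of the 75 cells, with at most 13.2% of its UMIs in 1 cell. Vmn2r96, Atp1b1, Yes1, Fas and Nt5e were each at a higher level in the class-switched cells of all 4 libraries. The genes were ranked on these libraries together, so this is not separate support for any of them. Haemoglobin genes were among the leading genes as well, Hba-a2 at 8040 against 1874 CPM, with 31.0% of the UMIs in 1 cell.

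Antibody-secreting barcodes, described as those with at least 10 Jchain UMIs and at least 2% of UMIs from the heavy chain genes, numbered 5 and were found after the values were seen. The first, in I-LC32, held 2752 Ighg2b UMIs among 22921 UMIs, with 8198 of Igkc, 721 of Jchain and 100 of Ighm, and it gave 94.5% of the library's Ighg2b. A second I-LC32 barcode held 2630 Ighm UMIs beside 10242 of Iglc1 and 1205 of Jchain, which was 2.15% of the library's Ighm. The third I-LC32 barcode held 2185 Igha UMIs and 610 of Jchain, or 86.6% of the library's Igha, and the fourth held 522 Ighm UMIs and 27 of Jchain. The P-HC24 barcode held 1086 Igha UMIs, or 77.7% of the library's, with 451 of Jchain, 29 of Tnfrsf17, the BCMA gene of plasma cells, and 8 of Zbtb32. No such barcode was found in P-LC24 or I-HC32, but this rests on the 2% limit. By Jchain alone, 1, 1, 5 and 3 barcodes of the libraries had at least 10 UMIs. For comparison, the heavy chain genes gave between 0.263 and 0.312% of all UMIs of the Cd79a-positive cells.

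The differences between the libraries of each phase were read with the 1.2-fold limit that the study's methods use, for genes with at least 100 UMIs over both libraries. In Prog, the log2 ratio of Ighd was -0.99 (interval -1.02 to -0.95), with the lower level in P-HC24, and that of Ighm was -0.12 (-0.14 to -0.11), which is under the limit. Ighg3 differed by 0.79 (0.39 to 1.2) and Ighg2b by -0.49 (-0.84 to -0.13). Igha differed by 2.63 (2.37 to 2.91), and by 0.64 without the richest barcode of each library. Of the 5 genes with enough UMIs, 4 were past the limit, as were 63.2% of 11881 genes. The median gene lay at -0.21, and 28.6% of the genes past the limit were higher in P-HC24. Set relative to the median gene, 54.3% were higher, Ighd lay at -0.78, and Ighm turned to 0.09.

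In Int, the log2 ratio of Ighd was -0.48 (-0.52 to -0.44), with the lower level in I-HC32, and that of Ighm was 0.05 (0.04 to 0.06). Ighg3 differed by 0.28 (0.05 to 0.50), and the low end of that interval is under the limit. Igha differed by -3.28 (-3.45 to -3.12) and Ighg2b by -3.75 (-3.93 to -3.57). The size of both differences rested on the I-LC32 barcodes. Without the richest barcode of each library they were -0.55 and 0.33, so that Igha kept its direction and Ighg2b changed direction. Of the 5 genes, 4 were past the limit, beside 32.3% of 12714 genes.

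Within the cell groups the differences in Ighd were smaller in Prog. In Fcer2a-only cells Ighd differed by -0.43 (-0.48 to -0.37) in Prog and by -0.29 (-0.35 to -0.23) in Int, and Ighm by -0.31 and 0.11. Both genes were past the limit in Prog, beside 53.7% of the genes compared, and Ighd was in Int, beside 27.4%. In Zbtb32-only cells Ighd differed by -0.32 (-0.48 to -0.15) in Prog and by 0.50 (0.40 to 0.61) in Int, and Ighm by -0.19 and -0.02, which are under the limit. Ighg3 differed by 0.19 (-0.37 to 0.79) and -0.43 (-0.71 to -0.15) in these cells, and the second was -0.14 (-0.44 to 0.16) without the richest barcode of each library, under the limit. Igha differed by 3.14, or 0.72 without the richest barcode, and by -0.35. Ighg2b, with enough UMIs in Int alone, differed by 1.04 (0.54 to 1.56). Background shares past the limit were 54.8% in Prog and 34.2% in Int.

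**Figure D5:**
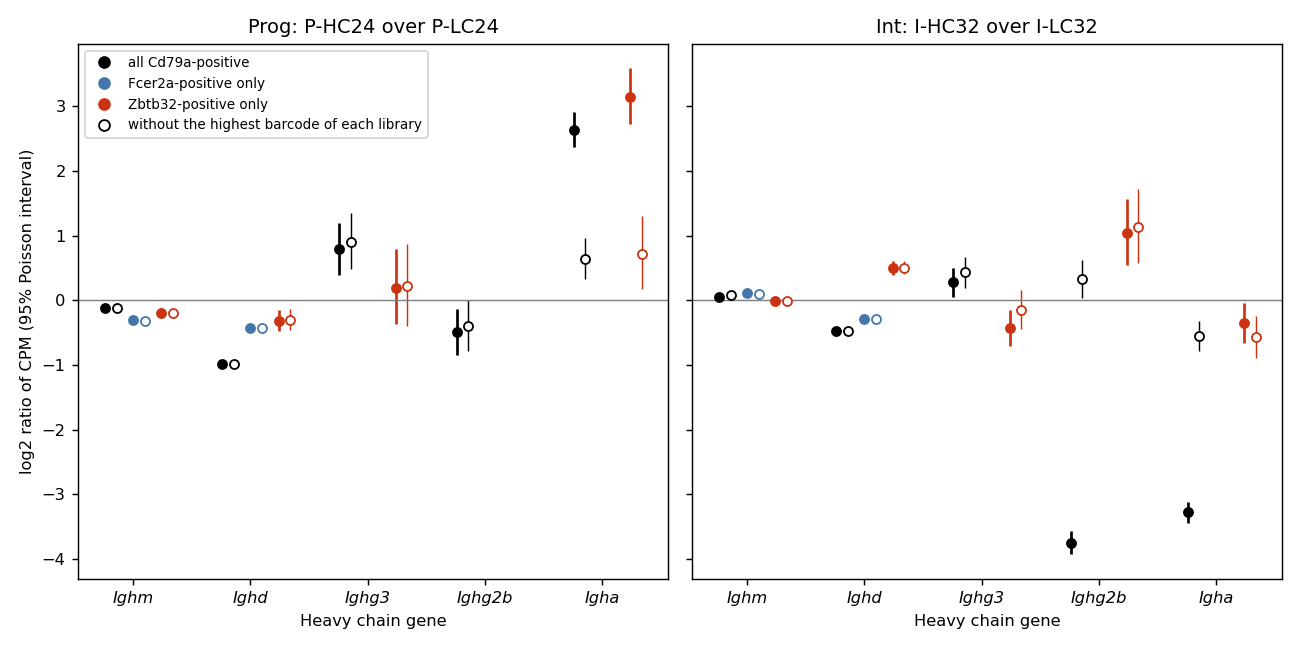
Log2 ratio of CPM of each heavy chain gene between the libraries of each phase, P-HC24 over P-LC24 and I-HC32 over I-LC32, in Cd79a-positive (black), Fcer2a-only (blue) and Zbtb32-only (red) cells, with exact 95% intervals for counting error only and open points without the richest barcode of each library. Ighd lies at -0.99 and -0.48 in Cd79a-positive cells, nearer to 0 in Fcer2a-only cells, and on opposite sides of 0 in Zbtb32-only cells, while the filled Igha and Ighg2b points far from 0 rest on single barcodes.

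The genes most like Ighm and Ighd over 12 sums, those of 4 libraries and 3 groups (Fcer2a-only, Zbtb32-only, neither), are given as a description, since the sums share libraries and the group difference runs through all of them. Out of 12262 genes, those closest to Ighm by Pearson's r of log2(CPM + 1) were Atp2a3, a calcium pump gene, at 0.977, Serpina3g at 0.973, Arid3a, a transcription factor gene that binds the heavy chain locus, at 0.969, Gm56940 at 0.967 and Hepacam2 at 0.963. Arid3a stood at 17.6 to 28.9 CPM in Zbtb32-only and 6.37 to 8.86 CPM in Fcer2a-only cells. Among those closest to Ighd were Clint1 at 0.995, Cr2, the complement receptor gene of follicular cells, at 0.995, 4931422A03Rik at 0.992 and Gdf11 at 0.991. Cr2 stood at 67.9 to 139 CPM in Fcer2a-only and 4.02 to 6.39 CPM in Zbtb32-only cells. Ighm and Ighd themselves were at -0.877 over the same sums.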

How the data were processed

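Single-cell libraries were made with the 10x 3′ kit. The files the authors deposited hold raw counts of UMIs for each gene and called cell, made with Cell Ranger 9.0.1 on GRCm39 per their processing notes, which also name Seurat 5.3. No filter or correction for free RNA had been applied to these counts. Cells under 500 UMIs, under 300 genes or over 10% mitochondrial UMIs were left out. Genes in fewer than 3 cells were not counted towards the 300 genes of a cell, but were kept in the counts. The cells with the highest Scrublet scores (scanpy 1.11.5), 0.8% for each 1000 cells, were removed as doublets. The members and gene lists were chosen with earlier results of these data known.

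Levels are CPM of summed UMIs, and intervals are exact Poisson (ratios, conditional) or Clopper-Pearson (shares) at 95%. A count of 0 was given a limit of 3 counts. Zbtb32-only and Fcer2a-only cells were summed per library, and sums were fitted with edgeR 4.0.16 (R 4.3.3; quasi-likelihood, trimmed-mean factors, library block, Benjamini-Hochberg adjusted p under 0.05), for genes with at least 10 UMIs in 4 of 8 sums, without Cd79a, Fcer2a and Zbtb32. The block pairs both groups of 1 library, since they come from the same pool of cells. Standard errors were taken from the F statistic. The fits were tested on simulated data. DESeq2 1.42.0 was an alternative. Genes named are all 8 members, the 5 genes most correlated with Ighm and with Ighd (at least 200 UMIs), the genes with the highest ratio in class-switched cells (at least 20 UMIs, 10% of cells), and the 2 to 4 most abundant genes of each of 8 lists, with any gene a small count needs. Others (Zfp318, Prdm1, Jchain, Pigr, Fcrl5 and Fcgrt among them) were named after their values were seen. Some genes that these rules select are not reported here. Markers came from 10 lists. Coordinates and sequences are from GENCODE M39 on GRCm39. In all, 33 alternatives were planned and 6 were added after seeing the data. The rest used Python 3.11.15 with pandas 2.3.3 and scipy 1.17.1, and numpy 2.4.6, and plots matplotlib 3.10.9.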

Additional observations from a re-analysis of the deposited data

Results flagged for a closer look

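The log2 ratios of Prog and Int lay on opposite sides of 0 for several genes. With 1 library per condition the difference between the phases was not tested. In Cd79a-positive cells Ighm was at -0.12 in Prog and 0.050 in Int, and Igha at 2.63 and -3.28. Set relative to the median gene, Ighm in these cells was at 0.09 and 0.03, so its change of side depended on scaling. In Fcer2a-only cells Ighm was at -0.31 and 0.11. In Zbtb32-only cells Ighd was at -0.32 and 0.50, and Igha at 3.14 and -0.35.

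Heavy chain UMIs were also found in cells without a Cd79a UMI, which no comparison used except as the background. These cells held 5215 Ighm UMIs, or 1.15% of all Ighm UMIs, and 299 Ighd UMIs, or 0.693%. They held 7 Ighg3, 11 Ighg2b and 35 Igha UMIs, and 0 of Ighg1, Ighg2c and Ighe.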

How the results depend on the processing

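Ighm, Ighd and Igha kept their calls between the cell groups in all 15 alternatives. Ighg3 was called in the 13 in which it could be tested, and could not be tested without P-HC24 or with cells thinned to 3000 UMIs. Apart from the fit of all genes with at least 1 UMI, it entered through the group in which it was high. Its calls are therefore not a separate check. Ighg2b lost its call in 7 of 14, and its adjusted p then ran to 0.378. The number of genes called was 6325, between 4876 and 5484 when 1 library was left out, 3623 with cells thinned to 3000 UMIs, and 4101 without the replicate block. The block changed no call on a heavy chain gene. In Prog, 7505 genes were past 1.2-fold, and 4096 of those with at least 100 UMIs and a UMI in 10% of cells. In Int, 4106 were, 6566 with a minimum of 20 UMIs, and 1538 with 100 UMIs and 10% of cells. Fewer or more genes enter by construction. Leaving out the 5 antibody-secreting barcodes, an alternative added after seeing the data, turned Ighg2b in Int from -3.75 to 0.44 and brought Igha to 0.47 in Prog and -0.39 in Int. With a mitochondrial limit of 5%, Ighm was at -0.54 in Prog and 0.25 in Int, past 1.2-fold in Prog, Ighd at -0.85 and -0.70, Igha at 4.24 and -4.35, and Ighg2b at -1.47 and -4.87, and the cause was not tested. The class-switched share stayed within its interval in every alternative run. Ighg1, Ighg2c and Ighe had too few UMIs to be compared.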
